A study of Homo sapiens with 16 samples.

Results

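The HOX cluster genes encode homeodomain transcription factors that lie in 4 clusters, HOXA, HOXB, HOXC and HOXD. The genes described here were those whose array symbol is HOXA, HOXB, HOXC or HOXD followed only by a number, each read from its brightest probe set that names a single gene, by the mean over all 16 arrays. This gave 28 of the 19775 genes measured: 1 HOXA gene (HOXA2), 10 HOXB genes, 9 HOXC genes and 8 HOXD genes. Other HOXA genes and HOXD3 were not analysed here.

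RNA came from SW480, a human colorectal cancer cell line with a truncated APC gene. In a series on TAZ and Wnt signalling, Affymetrix arrays were run on 4 groups of 4 samples, lettered A to D. The control group, siGFP, carried a stable empty vector and received a control siRNA. The siTAZ group carried the same empty vector and received an siRNA against TAZ, a transcriptional coactivator encoded by WWTR1. The sibcat group carried the empty vector and received an siRNA against beta-catenin, the Wnt effector encoded by CTNNB1. The APC group was stably transfected with a vector for wild-type APC, which takes part in beta-catenin destruction, and received the control siRNA. All cells grew in RPMI medium with serum, insulin and hydrocortisone. The labels give 1 siRNA condition per target and do not say whether the APC cells were 1 clone. They call the samples biological replicates without naming separate cultures. The p-values therefore rest on the spread among these samples alone, and that spread may be technical.

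HOX proteins set positional identity along the body axis, and genes with the same number in different clusters are paralogs. Low-numbered genes are used toward the head and high-numbered genes toward the tail. In the gut, HOX expression differs along its length, and the homeobox factor CDX2 helps to set it. PBX and MEIS proteins bind DNA with HOX proteins, while polycomb and trithorax proteins keep HOX clusters silent or active.

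The siRNA targets were low in their own groups. WWTR1 fell by 3.37 on the log2 scale in siTAZ cells (limma adjusted p = 8.87e-15), and CTNNB1 fell by 2.96 in sibcat cells (limma adjusted p = 2.18e-12). Of 12 colon epithelium markers, between 8 and 9 reached the median probe set level of 5.09 in each group. KRT20, CDH17 and LGALS4 lay below it in every group. The log2 of the summed level of all 12 markers ranged from 15.25 to 15.3 in siGFP and 15.12 to 15.17 in siTAZ cells. It ranged from 15.25 to 15.27 in sibcat and 15.0 to 15.06 in APC cells. The brightest markers weigh most in this sum. In APC cells 5 of the 12 were lower than in siGFP (limma adjusted p under 0.05) and 0 higher, among them KRT18 (-0.33) and KRT8 (-0.52). EPCAM and CDH1 were not lower, at 12.92 and 10.01 in APC and 12.8 and 9.88 in siGFP cells. Of 6 fibroblast markers, COL1A1 and PDGFRB reached the level in every group. Of 4 endothelial markers, PECAM1 did, and of 3 leukocyte markers at most CD3E did. The summed levels of these lists ranged from 7.63 to 8.07 for fibroblast, 6.57 to 7.0 for endothelial and 5.6 to 6.01 for leukocyte markers over the 4 groups. The gap between the 3' and 5' probe sets of ACTB, a sign of RNA integrity, was 2.05 ± 0.16 in siGFP, 2.57 ± 0.39 in siTAZ, 2.3 ± 0.24 in sibcat and 2.08 ± 0.32 in APC cells (log2, SD, n = 4 each). The number of arrays limits the precision of every value.

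Most of the HOX genes reached the median probe set level. A total of 23 of 28 reached 5.09, the median of all probe set values, in at least 1 group, and 21 did so in every group. HOXB1 and HOXD13 reached it in some groups only. HOXA2, HOXC12, HOXD1, HOXD4 and HOXD12 lay below it in every group, where signal may be largely background. In siGFP cells, 9 of 10 HOXB, 8 of 9 HOXC and 5 of 8 HOXD genes reached it, against 63.3% of all genes. The level is a description of brightness and not a detection call.

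All differences below are log2 differences from limma, with SE, and a gene was called higher or lower at an adjusted p under 0.05 over all genes tested. The comparisons with siGFP share the same 4 control arrays, so they are given side by side. The epithelial marker sum was lowest in APC cells and the ACTB gap widest in siTAZ cells; the part of the marker sum in the HOX differences was not tested. In siTAZ cells 6 of 28 HOX genes were called, 3 higher and 3 lower, where 30.1% of all genes were called, 17% higher and 13.1% lower. This was 21.4% of the HOX genes, a share below that of all genes. In sibcat cells 14 were called, 4 higher and 10 lower, against a background of 35.9%, 18.6% higher and 17.3% lower. In APC cells 15 were called, 3 higher and 12 lower, against a background of 33.7%, 16.6% higher and 17.1% lower. Lower calls thus made up 42.9% of the HOX genes in APC cells and 35.7% in sibcat cells. Brighter genes were called more often: among all genes that reached the median level in either group, 44% were called in siTAZ, 51.9% in sibcat and 47.1% in APC cells, and lower calls made up 19.3%, 25.1% and 23.9%. Of the HOX genes that reached it, 6 of 22 were called in siTAZ, 13 of 22 in sibcat and 15 of 23 in APC cells, with 3, 10 and 12 lower; these counts are a description, since the level was read from the groups compared. At 1.5-fold or more, 2 HOX genes were called lower in sibcat and 8 in APC cells, against 4.5% and 5.72% of all genes. The median HOX difference was 0.01 in siTAZ, -0.13 in sibcat and -0.24 in APC cells, where the median of all genes was 0.02, 0 and 0.01. In bulk RNA, fewer cells with a transcript and less of it per cell cannot be told apart.

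**Figure D1:**
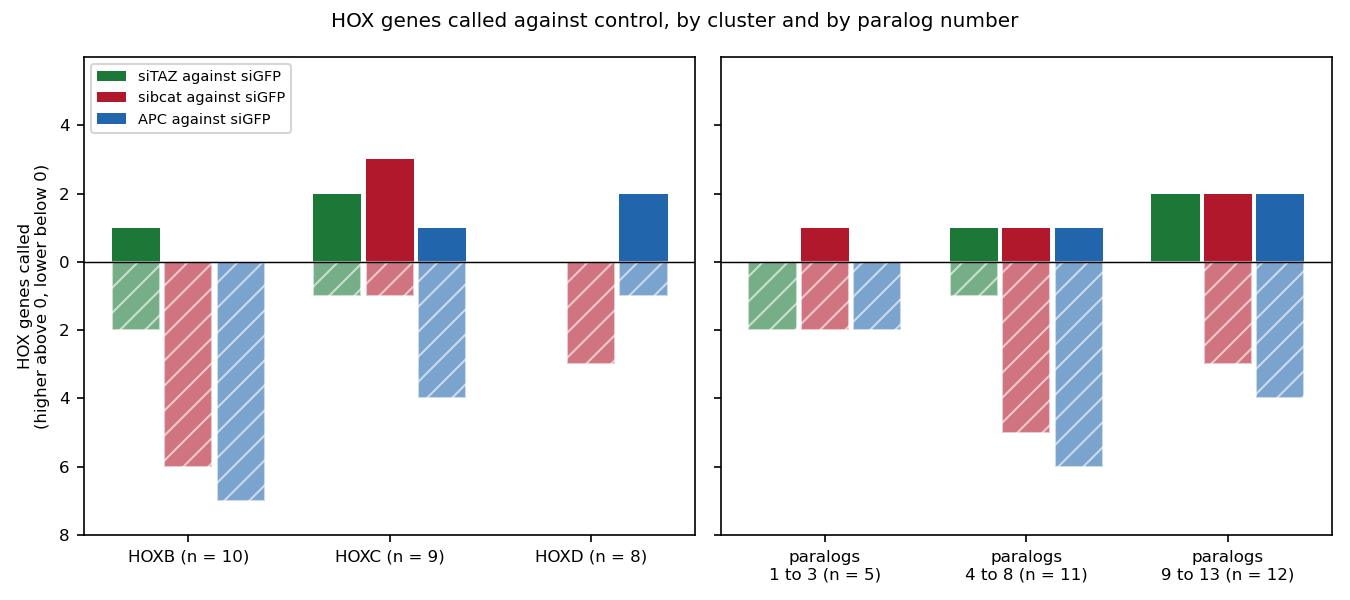
Number of HOX genes called higher (above 0) and lower (below 0) against siGFP in siTAZ, sibcat and APC cells, by cluster and by paralog position. In APC cells 7 of 10 HOXB genes were called lower and 0 higher, where 17.1% of all genes were lower and 16.6% higher.

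Lower calls were most frequent in HOXB. In APC cells 7 of 10 HOXB genes were lower and 0 higher, with a median difference of -0.72. In HOXC 4 of 9 were lower and 1 higher (median -0.33), and in HOXD 1 of 8 was lower and 2 were higher (median -0.08). In sibcat cells 6 of 10 HOXB genes were lower and 0 higher (median -0.27), 3 of 9 HOXC genes were higher and 1 lower (median 0.12), and 3 of 8 HOXD genes were lower and 0 higher (median -0.12). In siTAZ cells the calls were 1 higher and 2 lower in HOXB, 2 higher and 1 lower in HOXC, and 0 in HOXD. Grouped by paralog number, APC cells had 2 lower of 5 genes numbered 1 to 3, 6 lower and 1 higher of 11 numbered 4 to 8, and 4 lower and 2 higher of 12 numbered 9 to 13. For comparison, 17.1% of all genes were lower and 16.6% higher in APC cells. The shares were 17.3% and 18.6% in sibcat, and 13.1% and 17% in siTAZ cells. HOXB genes were also brighter, with a median siGFP level of 9.05, against 6.35 in HOXC and 5.68 in HOXD. Brighter genes were called more often, and the part of brightness in the cluster counts was not tested. These splits were counted and not tested against each other.

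**Figure D2:**
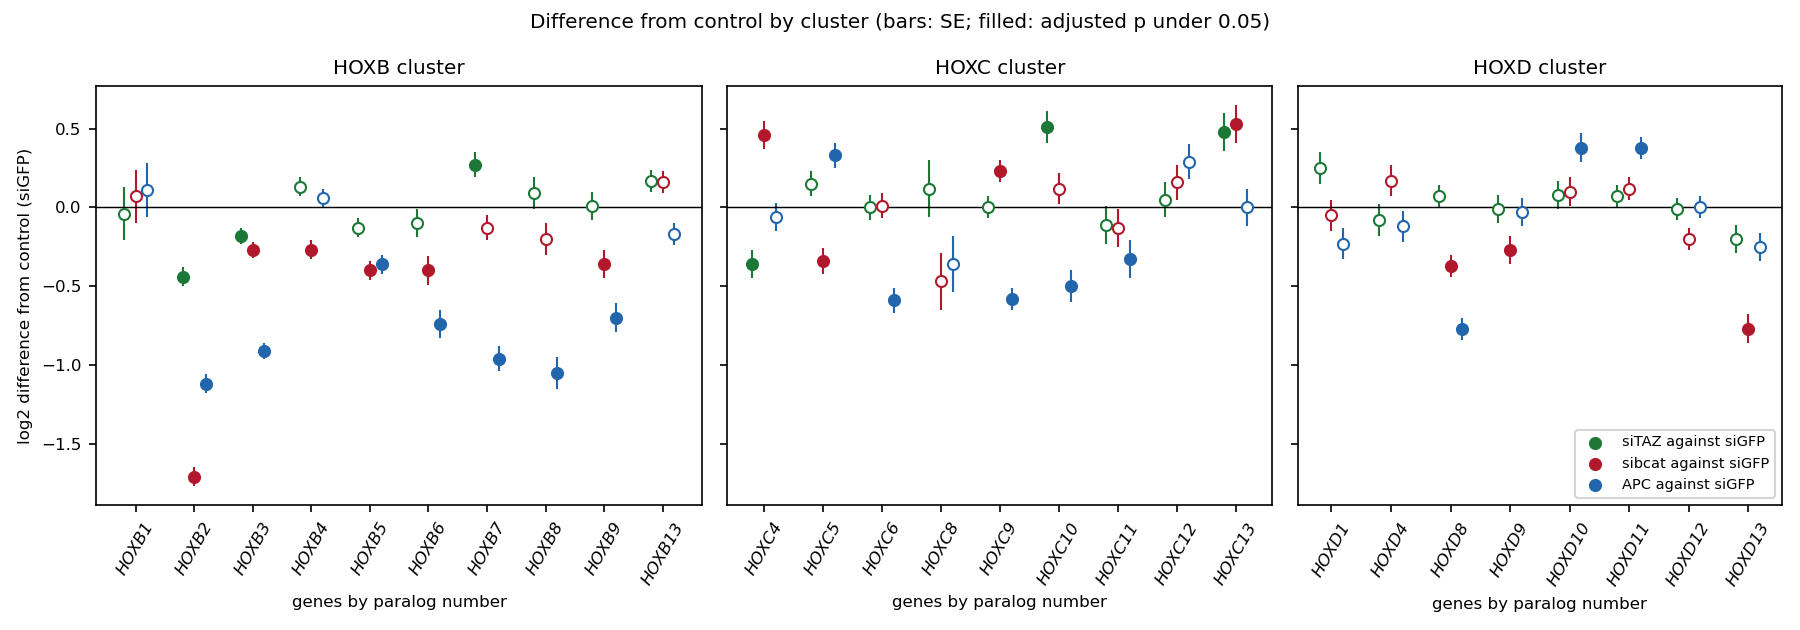
Log2 difference from siGFP for each HOXB, HOXC and HOXD gene in siTAZ, sibcat and APC cells, by paralog number, with the SE of the limma fit as bars; filled points were called. HOXB2 has the largest falls, -1.71 in sibcat and -1.12 in APC cells.

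HOXB2, an anterior HOXB gene, had the largest fall of any HOX gene in each of the 3 comparisons with siGFP. On arrays A to D it read 9.5, 9.57, 9.48 and 9.39 in siGFP, 9.07, 9.1, 8.95 and 9.05 in siTAZ, 7.71, 7.84, 7.78 and 7.78 in sibcat, and 8.35, 8.43, 8.47 and 8.21 in APC cells. The 4 groups did not overlap, and the order from high to low was siGFP, siTAZ, APC and sibcat. It fell by 0.44 in siTAZ cells (SE 0.06, limma adjusted p = 2.78e-05), or 1.36-fold. The sibcat fall was 3.27-fold (-1.71, SE 0.06, adjusted p = 1.86e-12), and the APC fall was 2.17-fold (-1.12, SE 0.06, adjusted p = 2.31e-10). HOXB2 was also higher in APC than in sibcat cells, by 0.59 (limma adjusted p = 5.16e-07). HOXB2 has 1 probe set, so no second reading was at hand. The same holds for HOXA2, HOXB4, HOXD8, HOXD11, HOXD12 and every HOXC gene.

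HOXB3, its neighbour, was the other member called in all 3 comparisons. HOXB3 read 10.56, 10.52, 10.68 and 10.67 in siGFP, and 9.7, 9.66, 9.71 and 9.73 in APC cells. It read 10.42, 10.42, 10.44 and 10.45 in siTAZ and 10.34, 10.3, 10.39 and 10.33 in sibcat cells. All 3 groups lay below siGFP without overlap, with APC cells lowest. HOXB3 fell by 0.91 in APC cells (SE 0.05, limma adjusted p = 1.04e-10), and less in sibcat (-0.27, adjusted p = 0.000202) and siTAZ cells (-0.18, adjusted p = 0.00828). The siTAZ call was lost with the ACTB gap as a covariate (-0.13, limma adjusted p = 0.0758). Its dimmer probe set was not called in any of the 3, reading 6.23 in siGFP and 6.21 in APC cells.

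The middle HOXB genes, HOXB5 to HOXB8, fell in APC cells. HOXB7 read 10.74, 10.75, 10.96 and 10.84 in siGFP, 11.1, 10.99, 11.09 and 11.19 in siTAZ, and 9.86, 9.77, 9.95 and 9.86 in APC cells. These groups did not overlap, and siTAZ cells were above siGFP while APC cells were below. The HOXB7 difference was -0.96 in APC cells (SE 0.08, limma adjusted p = 6.45e-08) and 0.27 in siTAZ cells (SE 0.08, adjusted p = 0.0181). The siTAZ value was 0.24 and no longer called without siGFP replicate A (limma adjusted p = 0.0565) or without siTAZ replicate D (adjusted p = 0.0596). In sibcat cells HOXB7 read 10.44, 10.67, 10.86 and 10.79, overlapped siGFP and was not called (-0.13). Both other HOXB7 probe sets were called higher in siTAZ and lower in APC cells, and 1 of them was called higher in sibcat cells (0.26).

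HOXB8 read 10.73, 10.67, 10.65 and 10.58 in siGFP and 9.48, 9.58, 9.69 and 9.67 in APC cells. The APC arrays were all below siGFP, by 1.05 on average (SE 0.1, limma adjusted p = 1.9e-07). HOXB8 read 10.75, 11.04, 10.44 and 10.75 in siTAZ and 10.45, 10.57, 10.51 and 10.3 in sibcat cells, and was called in neither (0.09 and -0.2). Its dimmer probe set was also lower in APC cells (-0.72).

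HOXB6, of the same stretch, read 9.96, 9.94, 9.83 and 9.79 in siGFP, 9.64, 9.47, 9.4 and 9.4 in sibcat, and 9.05, 9.2, 9.3 and 9.03 in APC cells. The 3 groups did not overlap. The HOXB6 fall was 1.66-fold in APC cells (-0.74, SE 0.09, limma adjusted p = 3.78e-06) and 1.32-fold in sibcat cells (-0.4, adjusted p = 0.00144). In siTAZ cells HOXB6 read 10.02, 9.79, 9.62 and 9.68, overlapped siGFP and was not called (-0.1). With the ACTB gap as a covariate the siTAZ difference was -0.25 (limma adjusted p = 0.0451). The dimmer HOXB6 probe set was also lower in APC cells and was not called in sibcat cells (-0.16).

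HOXB5 read 8.45, 8.65, 8.73 and 8.64 in siGFP, 8.21, 8.18, 8.27 and 8.21 in sibcat, and 8.15, 8.24, 8.4 and 8.25 in APC cells. Neither treated group overlapped siGFP. HOXB5 was lower by a like amount in both, -0.4 in sibcat cells (SE 0.06, limma adjusted p = 7.76e-05) and -0.36 in APC cells (adjusted p = 0.000256). HOXB5 read 8.46, 8.47, 8.47 and 8.56 in siTAZ cells and was not called (-0.13), but was called without siGFP replicate A (-0.18, limma adjusted p = 0.0314).

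HOXB9, a posterior HOXB gene, read 7.67, 7.8, 8.04 and 7.97 in siGFP, 7.48, 7.58, 7.49 and 7.5 in sibcat, and 7.16, 7.01, 7.25 and 7.26 in APC cells. Neither sibcat nor APC arrays overlapped siGFP. HOXB9 fell by 0.7 in APC cells (SE 0.09, limma adjusted p = 1.11e-05) and by 0.36 in sibcat cells (adjusted p = 0.00518). The siTAZ arrays, at 7.82, 7.73, 7.84 and 8.14, were not called (0.01). Its dimmer probe set was called lower in APC but not in sibcat cells. HOXB4 had group means of 7.26 in siGFP, 7.38 in siTAZ, 6.99 in sibcat and 7.32 in APC cells, and was called lower in sibcat cells (-0.27, limma adjusted p = 0.00165) and in neither other group. HOXB13, the posterior end of the cluster, was not called against siGFP, with means of 6.4, 6.57, 6.57 and 6.24 in the same order. Its sibcat and APC arrays did not overlap siGFP. With the mean of all its probe sets, HOXB13 was called higher in sibcat cells (0.23, limma adjusted p = 0.0237). In APC cells it was then called lower (-0.24, limma adjusted p = 0.0198). HOXB1, at the anterior end, was not called against siGFP, with means of 5.0, 4.96, 5.07 and 5.11 in the same order.

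**Figure D3:**
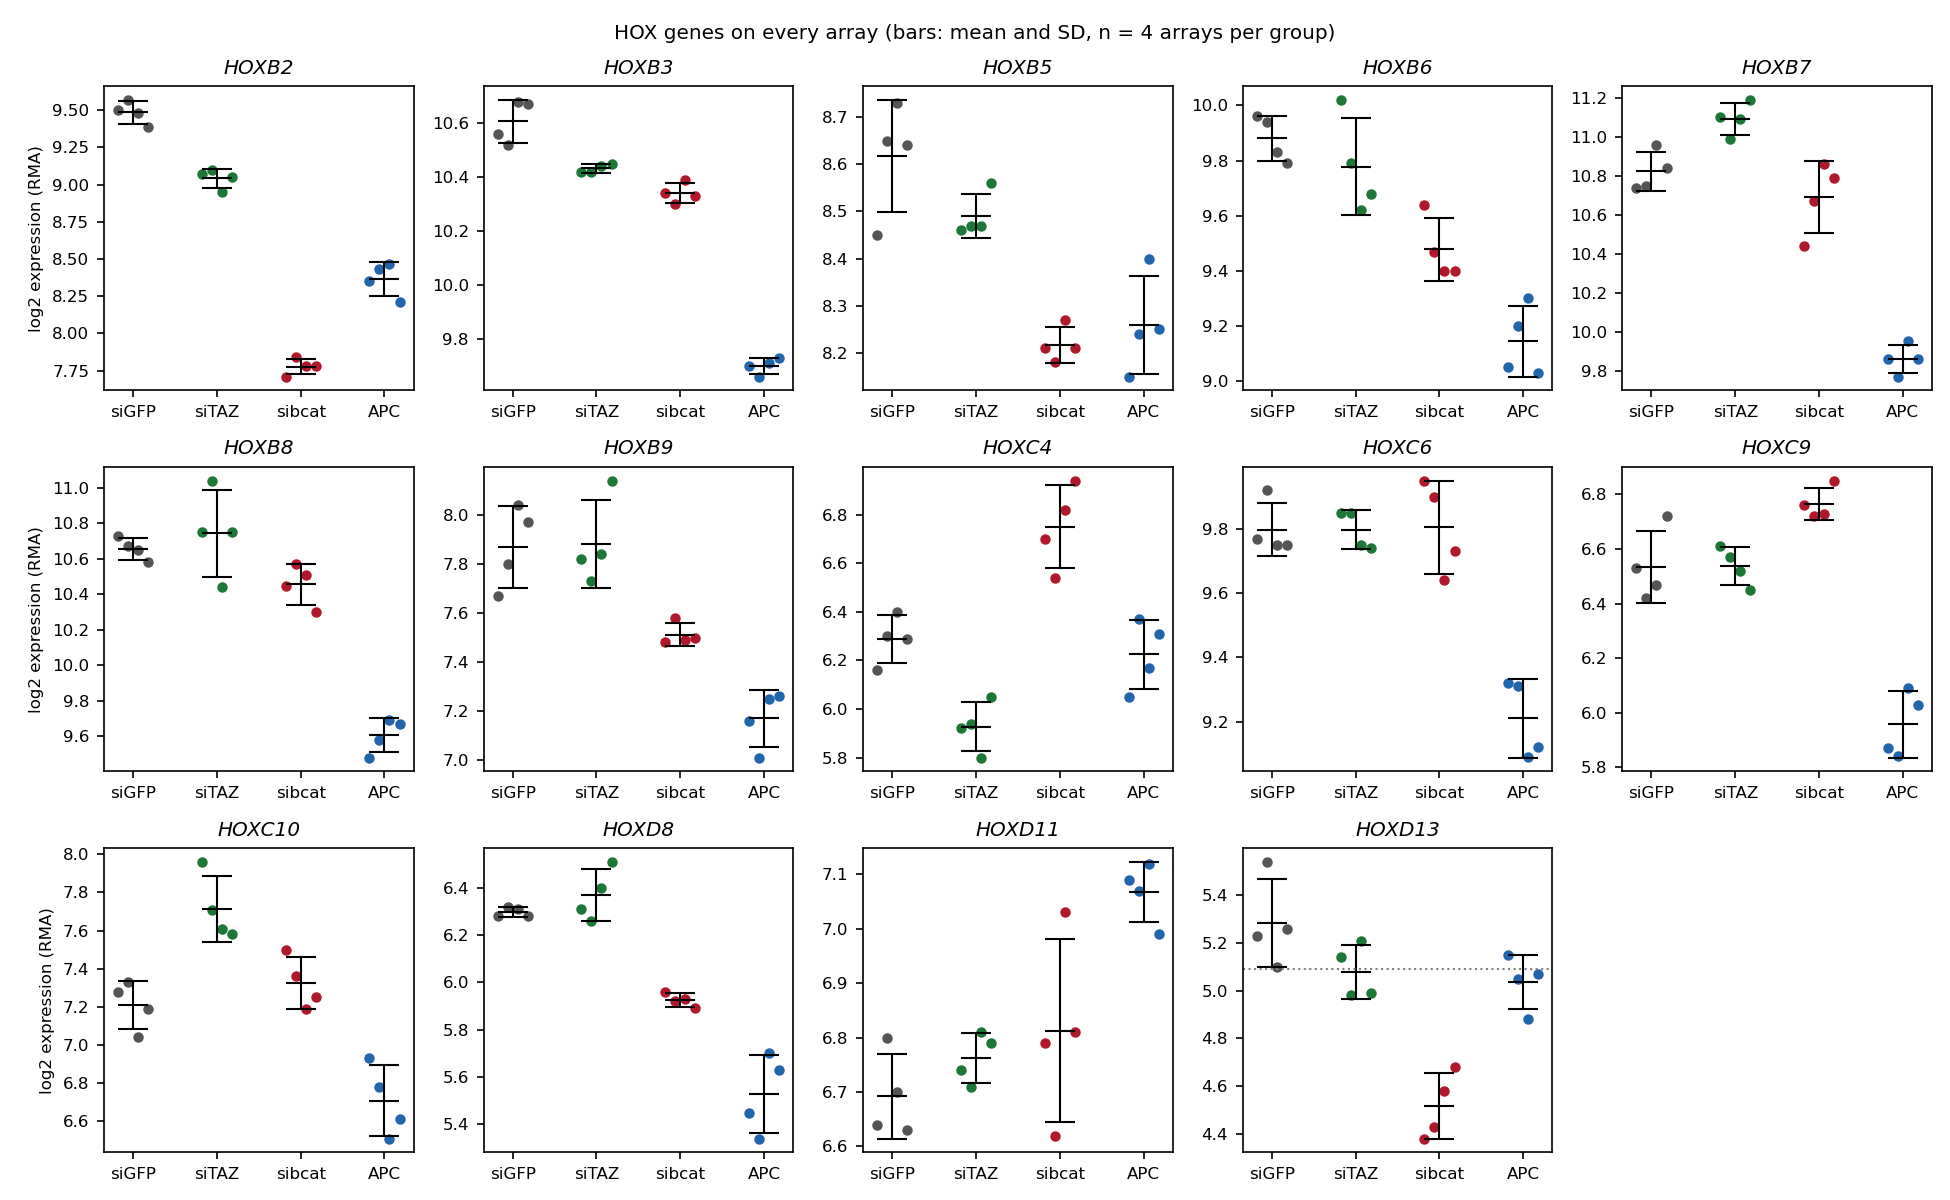
Log2 expression on each array for the 14 HOX genes described in full, by group, with the mean and SD of 4 arrays; the dotted line is the median level of 5.09. HOXB2 ran from 9.39 to 9.57 in siGFP and from 7.71 to 7.84 in sibcat cells.

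HOXC genes took different directions. HOXC4 read 6.16, 6.3, 6.4 and 6.29 in siGFP, 5.92, 5.94, 5.8 and 6.05 in siTAZ, and 6.7, 6.54, 6.82 and 6.94 in sibcat cells. siTAZ arrays were all below and sibcat arrays all above siGFP. The HOXC4 difference was -0.36 in siTAZ cells (SE 0.09, limma adjusted p = 0.00486) and 0.46 in sibcat cells (adjusted p = 0.000501). With the ACTB gap as a covariate the siTAZ difference was -0.28 and not called (limma adjusted p = 0.0679). APC cells, at 6.05, 6.37, 6.17 and 6.31, overlapped siGFP and were not called (-0.06).

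HOXC5, its neighbour, was lower in sibcat cells (6.01 against 6.35, -0.34, limma adjusted p = 0.00279) and higher in APC cells (6.69, 0.33, adjusted p = 0.00381), while siTAZ cells read 6.5 and were not called. HOXC4 and HOXC5 were called in opposite directions in sibcat cells, yet RefSeq lists the same upstream window for both. The 250 bases before that start are printed to show it, at chr12:54016638-54016887 of GRCh38.p14, plus strand. Capitals mark a TEAD motif (GGAATG on either strand) and a CDX motif (TTTATNG on either strand).

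HOXC4 and HOXC5: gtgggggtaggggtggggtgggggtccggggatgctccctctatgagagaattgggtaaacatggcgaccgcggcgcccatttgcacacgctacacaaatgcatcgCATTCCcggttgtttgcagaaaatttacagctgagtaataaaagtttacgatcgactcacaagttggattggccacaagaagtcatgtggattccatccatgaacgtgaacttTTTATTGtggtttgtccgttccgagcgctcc

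Matches were sought in the 250 bases before each listed start, also for a TCF/LEF motif (CTTTGAA or CTTTGAT), and no motif overlapped another in the windows printed here. Of all 35116 such windows, 11.9% held the TEAD motif, 8.93% the CDX motif and 5.94% the TCF/LEF motif. Windows were at hand for 11 of 28 HOX genes, and these were 10 distinct windows, since HOXC4 and HOXC5 share theirs. TEAD letters stood in 5 of the 10, CDX letters in 2 and TCF/LEF letters in 2. A match is a description of the letters and no measure of binding.

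HOXC6 read 9.77, 9.92, 9.75 and 9.75 in siGFP and 9.32, 9.31, 9.09 and 9.12 in APC cells. The groups did not overlap, and HOXC6 fell by 0.59 in APC cells (SE 0.08, limma adjusted p = 8.95e-06). HOXC6 read 9.85, 9.85, 9.75 and 9.74 in siTAZ and 9.95, 9.9, 9.64 and 9.73 in sibcat cells, and was called in neither (0 and 0.01). HOXC9, a posterior gene, read 6.53, 6.42, 6.47 and 6.72 in siGFP, 6.76, 6.72, 6.73 and 6.85 in sibcat, and 5.87, 5.84, 6.09 and 6.03 in APC cells. APC arrays lay below siGFP without overlap, by 0.58 (SE 0.07, limma adjusted p = 6.03e-06). The sibcat arrays overlapped siGFP at 6.72, and their rise of 0.23 was called (limma adjusted p = 0.0183). The siTAZ arrays, at 6.61, 6.57, 6.52 and 6.45, were not called. The sibcat call was lost without siGFP replicate B (0.19), without siGFP replicate C (0.21) or without sibcat replicate D (0.2).

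HOXC10 read 7.28, 7.33, 7.04 and 7.19 in siGFP, 7.96, 7.71, 7.61 and 7.58 in siTAZ, and 6.93, 6.78, 6.51 and 6.61 in APC cells. The siTAZ arrays were all above and the APC arrays all below siGFP. HOXC10 was 1.42-fold higher in siTAZ cells (0.51, SE 0.1, limma adjusted p = 0.00109) and 1.42-fold lower in APC cells (-0.5, adjusted p = 0.000967). The sibcat arrays, at 7.5, 7.36, 7.19 and 7.25, were not called (0.12). HOXC13, at the posterior end, had means of 5.27 in siGFP, 5.76 in siTAZ, 5.8 in sibcat and 5.28 in APC cells. It was called higher in siTAZ (0.48, limma adjusted p = 0.00656) and sibcat cells (0.53, adjusted p = 0.00268). With the ACTB gap as a covariate the siTAZ difference was 0.29 and not called (limma adjusted p = 0.136). HOXC11 was called lower in APC cells (means 6.58 and 6.26, -0.33, limma adjusted p = 0.0396) with arrays that overlapped siGFP, and read 6.47 in siTAZ and 6.46 in sibcat cells. That call rested on siGFP replicate B, which read 6.94 where the others read 6.44 to 6.47, and without it the difference was -0.21 (limma adjusted p = 0.129). It was also lost without APC replicate A (-0.23) or without APC replicate B (-0.31). HOXC8 had means of 5.83 in siGFP, 5.95 in siTAZ, 5.36 in sibcat and 5.47 in APC cells and was not called against siGFP, with a sibcat difference of -0.47 (limma adjusted p = 0.0518) and an APC difference of -0.36 (adjusted p = 0.147). Replicates A and B read higher than C and D in every group, in siGFP cells 6.06 and 6.15 against 5.52 and 5.57. With a block that splits A and B from C and D, HOXC8 was called lower in sibcat (limma adjusted p = 0.00165) and APC cells (adjusted p = 0.0122).

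Within HOXD, HOXD8 fell in APC cells while HOXD10 and HOXD11 rose. HOXD8 read 6.28, 6.32, 6.31 and 6.28 in siGFP, 5.96, 5.92, 5.93 and 5.89 in sibcat, and 5.45, 5.34, 5.7 and 5.63 in APC cells. The 3 groups did not overlap. HOXD8 was 1.7-fold lower in APC cells (-0.77, SE 0.07, limma adjusted p = 2.17e-07) and 1.29-fold lower in sibcat cells (-0.37, adjusted p = 0.000505). In siTAZ cells it read 6.31, 6.26, 6.4 and 6.51 and was not called (0.07).

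HOXD11 read 6.64, 6.8, 6.7 and 6.63 in siGFP and 7.09, 7.07, 7.12 and 6.99 in APC cells. Every APC array was above every siGFP array, by 0.38 on average (SE 0.07, limma adjusted p = 0.000481). In siTAZ cells it read 6.74, 6.71, 6.81 and 6.79 and was not called (0.07). In sibcat cells HOXD11 read 6.79, 6.62, 7.03 and 6.81, overlapped siGFP and was not called (0.12), but was called without sibcat replicate B (0.18, limma adjusted p = 0.0441). HOXD10 rose from 8.07 to 8.45 in APC cells (0.38, limma adjusted p = 0.00202), with siTAZ at 8.14 and sibcat at 8.16. Of its other 2 probe sets, 1 was not called and 1 was called higher in all 3 groups, by 0.38 in siTAZ, 0.38 in sibcat and 0.44 in APC cells. The windows of HOXD8 and HOXD11 are printed as members of 1 cluster that went opposite ways in APC cells. HOXD8 lies at chr2:176129455-176129704 and HOXD11 at chr2:176107030-176107279 of GRCh38.p14, both on the plus strand, from RefSeq. Capitals mark a TEAD and a CDX match in HOXD8, and none of the 3 motifs was found in the HOXD11 window. The window of HOXD10, which rose in APC cells as HOXD11 did, is not printed and held a TEAD match. Whether the motifs bear on these differences was not tested.

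HOXD8: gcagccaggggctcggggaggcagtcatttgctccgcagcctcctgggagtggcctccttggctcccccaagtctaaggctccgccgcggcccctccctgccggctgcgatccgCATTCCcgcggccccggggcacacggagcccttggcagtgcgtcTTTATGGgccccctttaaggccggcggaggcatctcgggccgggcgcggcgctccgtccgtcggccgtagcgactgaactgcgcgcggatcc
HOXD11: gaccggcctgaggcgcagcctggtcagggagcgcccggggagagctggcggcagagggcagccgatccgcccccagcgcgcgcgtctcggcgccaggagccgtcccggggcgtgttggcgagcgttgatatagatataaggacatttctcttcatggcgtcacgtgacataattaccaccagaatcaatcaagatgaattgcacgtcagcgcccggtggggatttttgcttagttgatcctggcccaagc

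Of the 6 members with the smallest adjusted p, HOXD8 had a window, and the other windows printed were chosen after their values were seen.

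HOXD13, the posterior end of HOXD, read 5.23, 5.54, 5.1 and 5.26 in siGFP and 4.38, 4.43, 4.58 and 4.68 in sibcat cells. The sibcat arrays were all below siGFP, by 0.77 (SE 0.09, limma adjusted p = 4.8e-06), and below the median level of 5.09. Its other 2 probe sets, also dim, were not called. The siTAZ arrays, at 5.14, 4.98, 5.21 and 4.99, were not called (-0.2). The APC arrays, at 5.15, 5.05, 4.88 and 5.07, differed by -0.25 and were not called (limma adjusted p = 0.0553). That difference was called without siGFP replicate C (-0.31, limma adjusted p = 0.0236) and without APC replicate A (-0.28, adjusted p = 0.0458). HOXD9 was called lower in sibcat cells (6.08 to 5.81, -0.27, limma adjusted p = 0.0271), with overlapping arrays and a second probe set that was not called, and read 6.08 in siTAZ and 6.05 in APC cells. The call was lost without sibcat replicate A (-0.19), sibcat replicate C (-0.24), siGFP replicate B (-0.21) or siGFP replicate C (-0.26).

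Of the 5 HOX genes below the median level in every group, HOXA2 was called higher in sibcat cells, from 4.39 to 4.75 (0.36, limma adjusted p = 0.000302), without overlap. HOXC12, HOXD1, HOXD4 and HOXD12 were not called against siGFP.

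Where a called gene named in full did not overlap siGFP, its exact two-sided permutation p was 0.0286, the smallest that 4 against 4 arrays can give, and for HOXC9 in sibcat cells it was 0.0571. With replicates A and B alone, HOXB3, HOXB7 and HOXC4 in siTAZ cells and HOXB3, HOXB9 and HOXC4 in sibcat cells were no longer called, and with replicates C and D alone HOXC9 in sibcat cells was not. Of the members given by group means, HOXB4, HOXC5 and HOXD9 in sibcat cells and HOXC5 in APC cells lost their calls with A and B alone, and HOXD9 in sibcat and HOXC11 in APC cells with C and D alone. Without siTAZ replicate B, HOXB4 (0.18), HOXB13 (0.24) and HOXC5 (0.23) were called higher in siTAZ cells. Without siGFP replicate B, the dim genes HOXD1 in siTAZ cells (0.35) and HOXC12 in APC cells (0.41) were called higher.

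Comparing the treated groups with each other, APC and sibcat cells differed in 22 of 28 HOX genes, 8 higher and 14 lower in APC cells, where 42% of all genes were called, 20.3% higher and 21.7% lower. The 5 HOXD genes numbered 9 to 13 were called higher in APC cells. HOXD13 arrays did not overlap (5.04 against 4.52), while those of HOXD9, HOXD10, HOXD11 and HOXD12 did. Both HOXD12 and HOXD13 lay below the median level in both groups. The other 2 HOXD13 probe sets read 4.63 and 3.22 in APC and 4.64 and 3.14 in sibcat cells. APC and siTAZ cells differed in 18, 3 higher and 15 lower in APC cells, against a background of 42.4%, 19.9% higher and 22.4% lower. HOXB7 was 2.35-fold lower in APC than in siTAZ cells (-1.23, limma adjusted p = 1.66e-09), and HOXC10 2.01-fold lower (-1.01, adjusted p = 3.81e-07). The siTAZ and sibcat groups differed in 17, 14 higher and 3 lower in siTAZ cells, against 36.7%, 18.9% higher and 17.8% lower. HOXC4 was lower in siTAZ than in sibcat cells by 0.82 (limma adjusted p = 1.02e-06).

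Long noncoding RNAs of the clusters were read where their symbol had a probe set. Whether a probe set separates an RNA from genes on the other strand was not checked, so these values are uncertain. Of 11 measured, 7 were lower and 0 higher in APC cells (median -0.42). In sibcat cells 3 were lower and 2 higher, and in siTAZ cells 2 were lower and 3 higher. Of all genes, 17.1% were lower and 16.6% higher in APC, 17.3% and 18.6% in sibcat, and 13.1% and 17% in siTAZ cells. Among all genes that reached the median level, 23.9% were lower in APC, 25.1% in sibcat and 19.3% in siTAZ cells. HOXB-AS3 read 9.34, 9.07, 9.26 and 9.2 in siGFP and 8.13, 7.79, 8.18 and 8 in APC cells. It fell by 1.19 in APC (limma adjusted p = 8.77e-09), by 0.61 in sibcat and by 0.39 in siTAZ cells. HOTAIR, transcribed from the HOXC cluster, read 7.82, 7.77, 7.86 and 7.91 in siGFP, 8.32, 8.22, 8.31 and 8.23 in siTAZ, 8.17, 8.29, 8.37 and 8.34 in sibcat, and 6.58, 6.86, 6.97 and 6.9 in APC cells. HOTAIR rose by 0.43 in siTAZ and 0.45 in sibcat cells and fell by 1.01 in APC cells (limma adjusted p = 0.000225, 0.0001 and 9.3e-09). HOXA11-AS was higher in siTAZ cells (0.63, limma adjusted p = 0.000323) and lower in APC cells (-0.94, adjusted p = 4.16e-06).

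**Figure D4:**
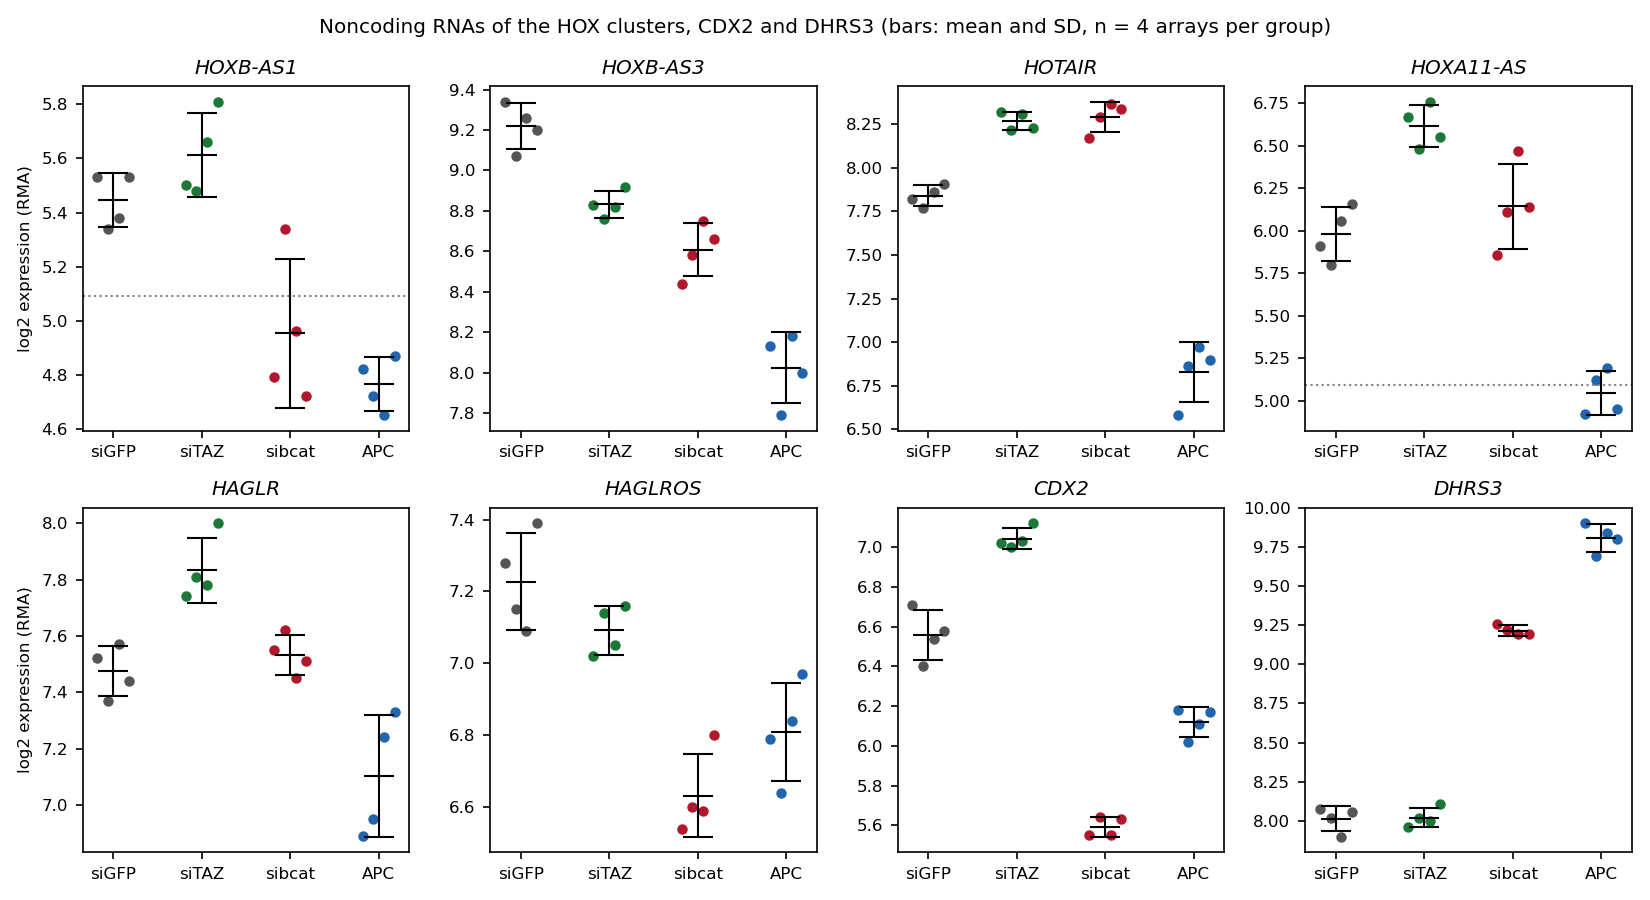
Log2 expression on each array of 6 noncoding RNAs of the HOX clusters, CDX2 and DHRS3, by group, with the mean and SD of 4 arrays; the dotted line is the median level of 5.09. HOTAIR ran from 7.77 to 7.91 in siGFP and from 6.58 to 6.97 in APC cells.

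Genes that regulate or partner HOX genes moved in both directions. Of all genes, 30.1% were called in siTAZ, 35.9% in sibcat and 33.7% in APC cells. Among all genes that reached the median level the shares were 44%, 51.9% and 47.1%. Of 6 ParaHox genes, CDX2 alone was called. Its difference was 0.49 in siTAZ, -0.97 in sibcat and -0.44 in APC cells (limma adjusted p = 1.24e-05, 2.29e-09 and 2.74e-05). Of 8 PBX, MEIS and PKNOX cofactors, 2 were higher and 2 lower in siTAZ, 4 higher and 3 lower in sibcat, and 2 higher and 2 lower in APC cells. PBX3 rose by 0.65 in sibcat cells and fell by 0.67 in APC cells (limma adjusted p = 2.25e-07 and 1.56e-07), and MEIS1 rose by 0.54 in APC cells. Of 17 polycomb genes, 10 were higher and 3 lower in siTAZ, 5 higher and 6 lower in sibcat, and 8 higher and 5 lower in APC cells. EZH2, the H3K27 methyltransferase, fell by 0.69 and EED rose by 0.63 in APC cells (limma adjusted p = 6.37e-08 and 1.41e-06). Of 13 trithorax-type genes, 3 were higher and 2 lower in siTAZ, 4 higher and 4 lower in sibcat, and 1 higher and 3 lower in APC cells, where KMT2D fell by 0.68. Of 15 retinoic acid pathway genes, 3 were higher and 1 lower in siTAZ, 5 higher and 3 lower in sibcat, and 5 higher and 1 lower in APC cells. DHRS3, a retinal reductase, rose by 1.79 in APC and by 1.2 in sibcat cells (limma adjusted p = 1.69e-13 and 4.66e-11). CYP26A1, which breaks down retinoic acid, rose by 0.79 in APC cells. ALDH1A3 rose by 1.3 in APC and by 0.84 in sibcat cells (limma adjusted p = 4.55e-10 and 1.18e-07). RDH10 rose by 0.76 in APC and by 0.44 in sibcat cells, while CRABP2 fell by 0.41 in sibcat cells. Retinoic acid itself was not measured.

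Of 25 genes that flank the HOX clusters, 3 were higher and 13 lower in APC cells (median -0.2). In sibcat cells 5 were higher and 7 lower, and in siTAZ cells 4 were higher and 6 lower. Lower calls made up 17.1% of all genes in APC, 17.3% in sibcat and 13.1% in siTAZ cells. Among genes that reached the median level, as 23 of these 25 did, they made up 23.9%, 25.1% and 19.3%. SKAP1, the protein-coding gene next to HOXB1 in RefSeq order, read 8.25, 8.09, 8.09 and 8.12 in siGFP and 6.2, 6.31, 6.6 and 6.46 in APC cells. SKAP1 fell by 1.75 in APC and by 0.92 in sibcat cells and was higher by 0.44 in siTAZ cells (limma adjusted p = 1.52e-11, 5.82e-08 and 0.000293). NFE2, near the HOXC cluster, fell by 1.48 in APC cells (limma adjusted p = 2.96e-11). The lists of regulators and neighbours were counted, and no list was tested as a set.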

How the data were processed

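The authors deposited log2 expression values per probe set, made with RMA per the submitters' processing notes; no version is given, and the log base follows from their range (1.8 to 14.56). Of 54675 probe sets, 41097 name a single gene in the platform annotation, and each of the 19775 genes is represented by its brightest one. Values were fitted in limma 3.58.1 (R 4.3.3) on all 16 arrays with 1 coefficient per group and called at an adjusted p under 0.05 over all genes. Named HOX genes were also given exact permutation tests, whose smallest possible p is 0.0286. Genes were named in full when called against siGFP and bright in that comparison, up to 14 by smallest adjusted p; the other bright ones by group means, and dim ones by count, with any called one named. From the other lists, at most 4 called genes per comparison were named. HOX members and lists were chosen with earlier results of these data known. Motifs were searched in RefSeq windows (GRCh38.p14). The fit was tested on simulated data. Figures were drawn with matplotlib 3.10.9.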

Additional observations from a re-analysis of the deposited data

Results flagged for a closer look

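In 4 of 92 groups of 4 arrays tested, a HOX gene had 1 array set apart from the other 3 by a gap past Dixon's limit; chance gives about 1 in 20. HOXC11 read 6.94 on siGFP replicate B, where the others read 6.44 to 6.47, and 6.65 on siTAZ replicate D, where the others read 6.39 to 6.43. HOXC6 read 9.92 on siGFP replicate B, where the others read 9.75 to 9.77. HOXB5 read 8.56 on siTAZ replicate D, where the others read 8.46 to 8.47.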

How the results depend on the processing

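For the 14 HOX genes named in full, 26 differences from siGFP were called, and 18 stayed called under every alternative run, up to 29 each; 0 changed direction. The counts of HOX genes called against siGFP or between groups stayed within 1.5 times of their values except with replicates A and B alone, a setting chosen after earlier results were known, where siTAZ against siGFP gave 3 calls in place of 6, sibcat against siGFP 9 in place of 14, and siTAZ against sibcat 9 in place of 17; fewer arrays enter that fit. A like count does not mean the same genes: with the ACTB gap as a covariate siTAZ against siGFP gave 4 calls, of which 3 were among the 6, and HOXB3, HOXC4 and HOXC13 were lost. Leaving out 1 array at a time gave 5 to 9, 13 to 16 and 14 to 16 calls for siTAZ, sibcat and APC against siGFP, 13 to 19 for siTAZ against sibcat, 19 to 22 for APC against sibcat and 17 to 19 for APC against siTAZ. With the 75th percentile (7.19) as the level, 11 HOX genes reached it in place of 23. With the replicate letter as a replicate block, the counts were 6, 16, 17, 19, 22 and 18 in place of 6, 14, 15, 17, 22 and 18. This block, and likewise a block that splits A and B from C and D, added HOXC8 and HOXD12 as lower in sibcat cells, and HOXC8 as lower and HOXC12 as higher in APC cells. The letters did not meet the rule for pairing. After group means were removed, 22 of 24 same-letter pairs across groups had a correlation over 0.1. The median correlation was 0.15 for same-letter pairs and -0.13 for other pairs. For 9 of 16 arrays, the mean correlation with arrays of other groups was highest for their own letter. Some variation was thus shared across groups, by letter or by the split of A and B from C and D, which these correlations do not separate. The main fit had no block for either.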
